A study of Rattus norvegicus with 24 samples.

Results

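The conjugation enzymes of drug metabolism were followed in cultured primary hepatocytes of the rat, exposed for 24 h to piperazine designer drugs, 4 in number. The members are all genes whose symbol in the array's platform annotation begins with Gst plus a letter, Mgst, Sult or Ugt. The rule found 47 genes among the 14217 with a named probe set of their own: 9 Ugt, 14 Sult, 21 Gst and 3 Mgst genes. The rule reads symbols and uses no measured value. A probe set is a group of array probes read as 1 value, and the brightest probe set, by its mean on all arrays, stood for each gene.

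The hepatocytes lay in a collagen sandwich and were treated from 24 h after seeding. Treated samples received 625 µM BZP (benzylpiperazine), 35 µM TFMPP (trifluoromethylphenylpiperazine), 522 µM MeOPP (methoxyphenylpiperazine) or 467 µM MDBP (methylenedioxybenzylpiperazine), each at its EC20 per the labels. Each drug had 3 treated samples, and each of these had a control of its own in 0.1 percent DMSO, which made 12 pairs. The doses differ between drugs, and the labels give no strain, sex or age. All values are log2 expression values, so a difference of 1 is a 2-fold change. A change is treated minus paired DMSO, with the standard error (SE) of a limma fit with pair terms, and a gene was said to rise or fall where the Benjamini-Hochberg adjusted p over all probe sets was under 0.05. The labels do not tell separate animals or cultures apart, so the spread behind the p-values may be technical.

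Conjugation joins a polar group to a drug, hormone or bile acid so that it can be excreted. UDP-glucuronosyltransferases (Ugt) of the endoplasmic reticulum add glucuronic acid from UDP-glucuronate, cytosolic sulfotransferases (Sult) add sulfate from PAPS, and glutathione S-transferases (Gst in the cytosol, mitochondria and peroxisomes, Mgst in membranes) add glutathione. The liver is the main site of all 3 reactions, and several of these genes are known targets of the receptors CAR, PXR and AHR, of the oxidative stress factor NRF2 and of liver factors such as HNF1.

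The stretches of 250 bases before the transcript start are shown for 4 members, to set the gene with the deepest fall (Sult2a6), the 2 Gst genes that fell most (Gstt3, Gsta3) and a Gst gene that rose (Gstp1) side by side. The sequences are from RefSeq, build GRCr8, and are written 5′ to 3′ on the strand of the gene: Sult2a6 at chr1:84097809-84098058, minus strand; Gsta3 at chr9:31154739-31154988, plus strand; Gstp1 at chr1:210769706-210769955, minus strand; and Gstt3 at chr20:12874368-12874617, plus strand. Capitals mark matches on either strand to TGACNNNGC, the core of the antioxidant response element, to GCGTG, the core of the xenobiotic response element, or to GTTAAT, part of the HNF1 site.
Sult2a6: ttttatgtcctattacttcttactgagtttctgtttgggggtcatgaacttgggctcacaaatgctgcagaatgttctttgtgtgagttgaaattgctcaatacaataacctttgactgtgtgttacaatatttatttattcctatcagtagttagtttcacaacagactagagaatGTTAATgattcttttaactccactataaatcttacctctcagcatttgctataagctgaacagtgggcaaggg
Gsta3: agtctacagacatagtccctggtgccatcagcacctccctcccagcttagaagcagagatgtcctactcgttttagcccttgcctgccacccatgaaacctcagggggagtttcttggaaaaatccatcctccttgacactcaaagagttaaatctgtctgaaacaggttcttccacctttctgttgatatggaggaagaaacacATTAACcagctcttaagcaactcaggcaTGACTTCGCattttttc
Gstp1: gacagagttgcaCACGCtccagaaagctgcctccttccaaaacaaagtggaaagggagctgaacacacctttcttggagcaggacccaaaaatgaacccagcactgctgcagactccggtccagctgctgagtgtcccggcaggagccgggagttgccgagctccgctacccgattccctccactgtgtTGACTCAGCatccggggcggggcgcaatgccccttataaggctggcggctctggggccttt
Gstt3: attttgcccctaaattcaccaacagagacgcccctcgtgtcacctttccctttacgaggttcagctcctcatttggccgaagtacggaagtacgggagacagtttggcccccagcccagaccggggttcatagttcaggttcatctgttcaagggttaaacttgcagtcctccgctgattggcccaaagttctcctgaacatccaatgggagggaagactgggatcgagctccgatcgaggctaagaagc

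Sult2a6 held a GTTAAT that began 73 bases before the start. RefSeq gives 2 starts for Gsta3, and the first listed is shown and counted. It held TGACTTCGC at 17 and, on the opposite strand, GTTAAT at 45 bases before the start, whereas the window of the other start held neither motif and GCGTG at 233. Gstp1 held TGACTCAGC at 61 bases before the start and GCGTG on the opposite strand at 238. The letters searched were not in the Gstt3 window, nor in that of Gstk1, the member that rose most, which is not shown. A window was found for 41 of the 47 members. TGACNNNGC stood in 6 of them, 2 of the 7 that rose and 3 of the 21 that fell, against 10.1 percent of 33469 RefSeq promoters. GCGTG stood in 10 (all promoters, 25.9 percent) and GTTAAT in 3 (6.45 percent), none of the latter among genes that rose. These are matches of letters and no evidence of binding.

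Averaged over the 4 drugs, far more of the conjugation enzymes fell than rose. Of the 47 members, 25 fell and 7 rose in limma, while 15 did not pass. Among all 14217 genes, 11.9 percent fell and 18.0 percent rose in the same comparison. The members' median change was -0.23, against 0.01 for all genes, and it lay below 0 in each of the 12 pairs. In 16 members the treated array was the lower in 12 of 12 pairs, and in 3 it was the higher. Sult2a6, Gstt3, Gsta3 and Sult1a1 fell at least 2-fold, and no member rose that far. For comparison, 120 of all genes fell and 26 rose at least 2-fold. The shares of all genes above belong to the fit with pair terms. None is given for the counts by 12 of 12 pairs or for the fit without pair terms. Without the pair terms 12 members fell (Gsta1, Gsta3, Gstt2, Gstt3, Gstz1, Mgst3, Sult1a1, Sult1b1, Sult2a6, Ugt2b, Ugt2b15 and Ugt2b35) and 4 rose (Gstk1, Gstp1, Sult1c2 and Sult6b2); the calls on the other 16 rest on the pairing.

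**Figure D1:**
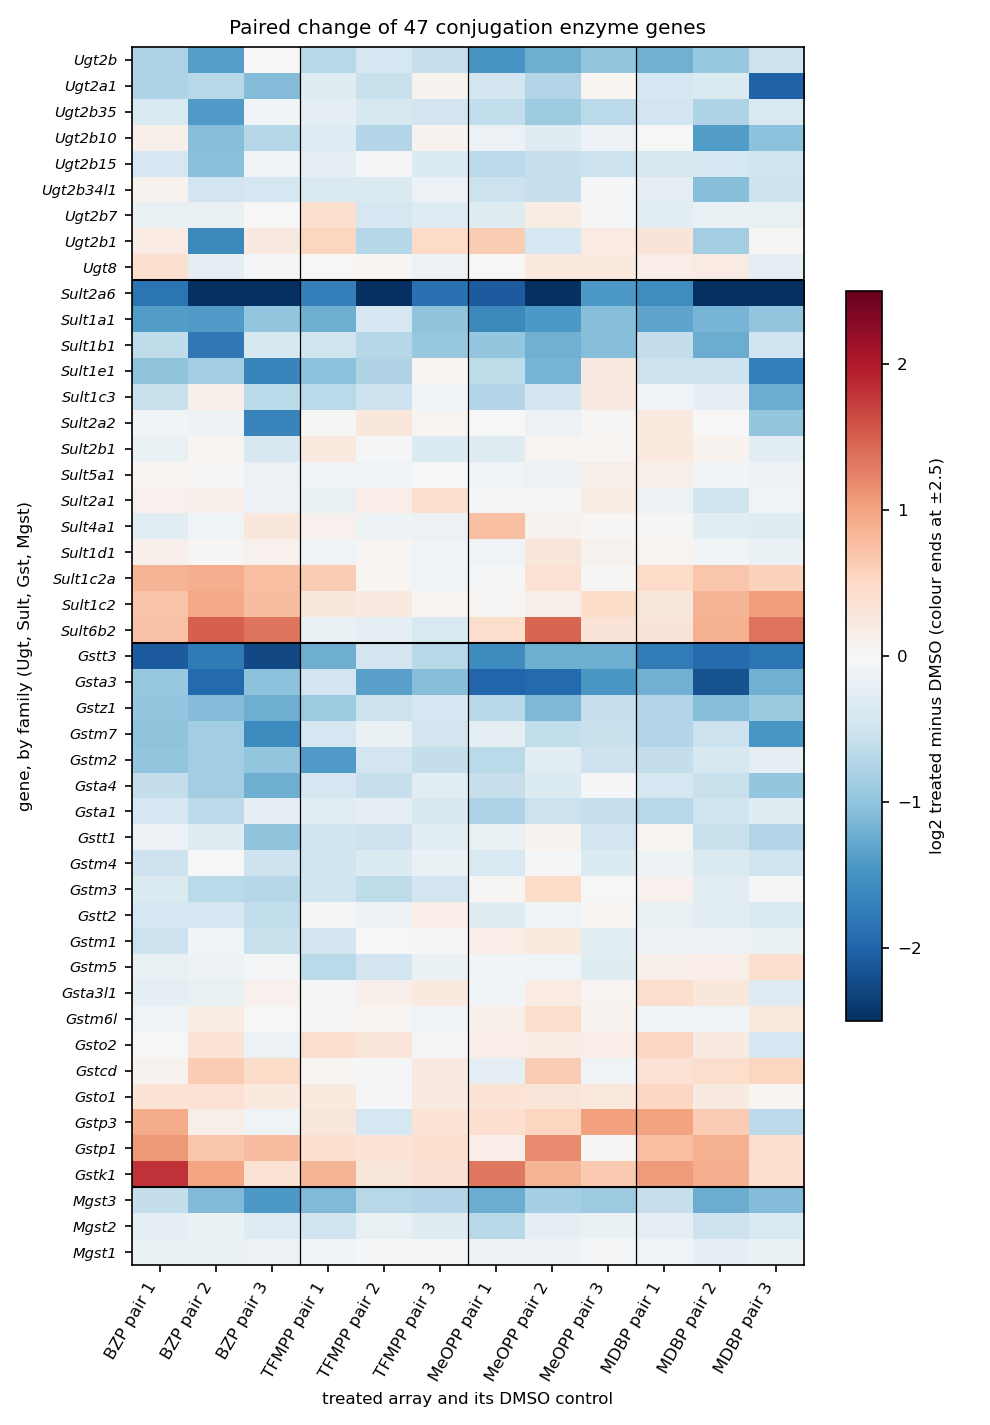
Change of each of the 47 members in each of the 12 pairs, as log2 treated minus DMSO (blue lower, red higher), with genes by family and pairs by drug. Sult2a6, Gstt3, Gsta3, Sult1a1 and Mgst3 are blue in all 12 columns, and Gstk1 and Gstp1 are red in all 12.

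The pairs were divided into 5 groups, called preparations here, by clustering their DMSO arrays on Pearson correlation. The number of groups was set by hand, and the labels name no such batch. Pearson correlations of DMSO arrays were 0.9943 to 0.9971 inside these groups and 0.9622 to 0.9919 across them. The groups were formed from these same correlations, so higher values inside follow at least in part from the grouping. Preparation 3 (pair 3 of BZP and of MDBP) stood farthest from the rest. Preparations 1 to 5 hold 4, 3, 2, 2 and 1 pairs, so each value of preparation 5 rests on 1 pair, pair 2 of MDBP. The members' median change was -0.20, -0.23, -0.34, -0.06 and -0.29 in preparations 1 to 5. With 1 value per preparation 21 members fell and 7 rose, and without preparation 3, an alternative chosen after seeing the data, 23 fell and 8 rose. No share of all genes is given beside these counts.

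Among the Ugt genes, 6 of 9 fell and 0 rose at the adjusted threshold (by an unadjusted p under 0.05 also 0). All of the 6 belong to the Ugt2 group on chromosome 14, whose enzymes glucuronidate steroids, bile acids and drugs. Ugt2b lay between 10.4 and 12.2 in DMSO, with a median of 11.2, and between 9.40 and 11.9 in treated samples, with a median of 10.3. The DMSO and treated ranges overlapped, and Ugt2b was lower in 11 of 12 pairs, with pair 3 of BZP at 0.01. Its change was -0.85 ± 0.09 (SE, n = 12 pairs; 1.80-fold lower; adjusted p = 5.91e-06). A second, dimmer probe set of Ugt2b fell by 1.34 ± 0.10 in 12 of 12 pairs.

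The other 5 Ugt2 genes that fell did so by smaller amounts. Ugt2b35 changed by -0.57 ± 0.09 and Ugt2b15, a steroid and bile acid glucuronosyltransferase, by -0.44 ± 0.07, each lower in 12 of 12 pairs. Ugt2a1, known from olfactory tissue, changed by -0.61 ± 0.12 in 10 of 12 pairs, on a DMSO mean of 4.41, and its adjusted p was 0.0571 with 1 value per preparation. Ugt2b10 and Ugt2b34l1 fell by 0.47 and 0.39. Ugt2b7 and Ugt8, the ceramide galactosyltransferase of myelin, did not pass and had DMSO means of 3.21 and 2.27.

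Ugt2b1 moved in different directions between preparations. It stood at 9.98, 10.3, 12.1, 8.64 and 10.3 in the DMSO arrays of preparations 1 to 5, a span of 3.43. Its changes were 0.42, -0.92, 0.12, 0.35 and -0.88 in the same order. Ugt2b1 was lower in the 4 pairs of preparations 2 and 5 and higher in the other 8. The mean over the drugs was -0.09 ± 0.16 (limma adjusted p = 0.783), and it turned to 0.07 without pair 2 of BZP, to 0.02 without pair 2 of TFMPP and to 0.00 without pair 2 of MDBP.

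The Ugt1a genes, which include the bilirubin-conjugating enzyme, share most of their exons. The array reads them through 2 probe sets that the annotation assigns to 8 genes at once, so none was counted. The first stood at 12.7 ± 0.2 in DMSO (SD, n = 12) and changed by -0.10 ± 0.05 (adjusted p = 0.127). The second stood at 11.2 ± 0.3 and changed by -0.18 ± 0.05 (adjusted p = 0.0235), lower in 11 of 12 pairs. The joint signal of the Ugt1a genes thus fell by little or did not pass, and these probe sets cannot tell its genes apart.

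**Figure D2:**
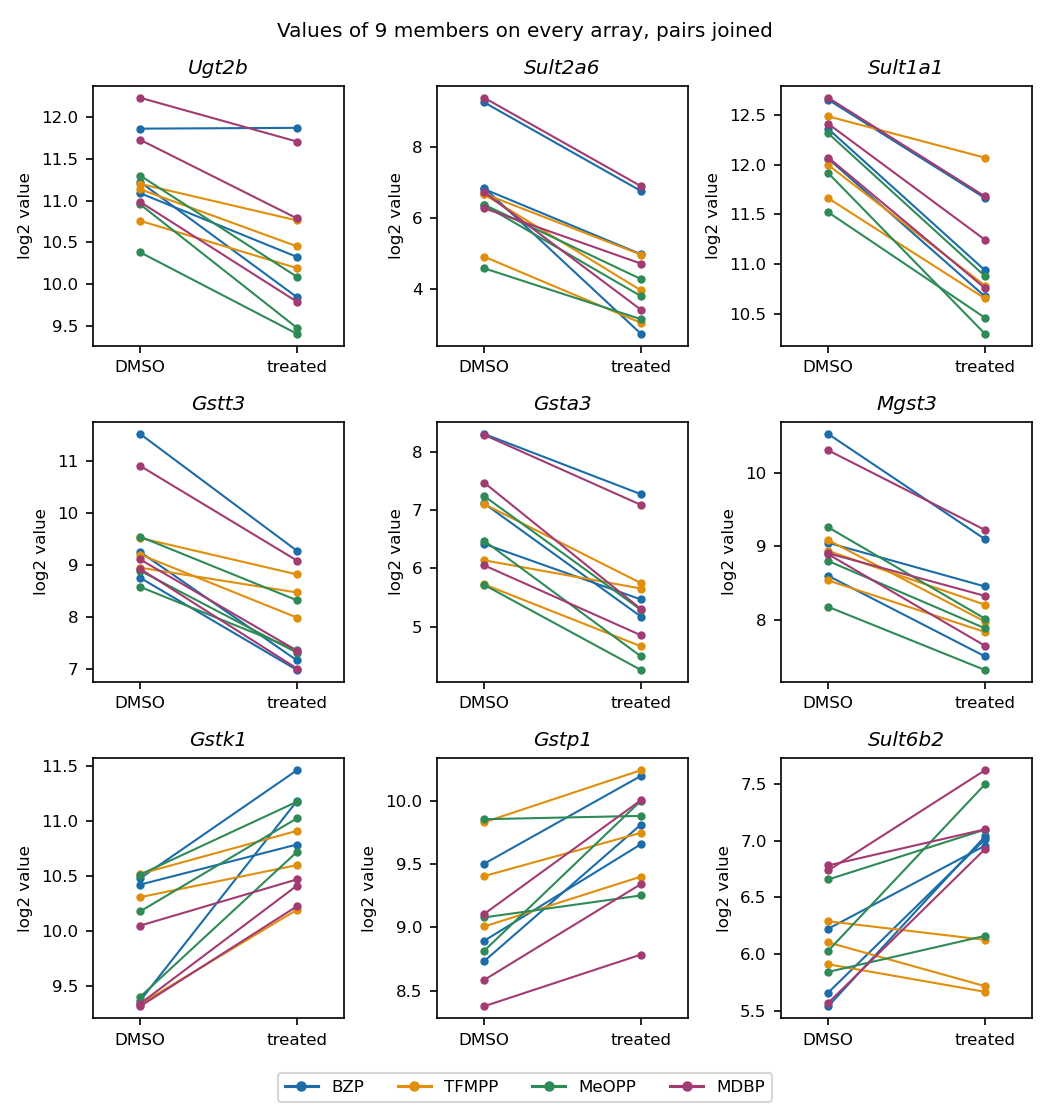
Log2 values of 9 members in every DMSO array (left) and its paired treated array (right), coloured by drug, with a line for each pair. Each line slopes down for Sult2a6, Sult1a1, Gstt3, Gsta3 and Mgst3 and up for Gstk1 and Gstp1, while Sult6b2 slopes down in the 3 TFMPP pairs and up in the other 9.

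The sulfotransferases moved both ways: 5 of 14 fell, 3 rose and 6 did not pass. Sult2a6, which sulfates bile acids and steroids, had the largest change of all members. In DMSO it stood at 6.82, 6.85 and 9.25 in the BZP pairs, and after BZP at 4.99, 2.75 and 6.76. In the TFMPP pairs it went from 6.69, 6.67 and 4.92 to 4.98, 3.97 and 3.06. The MeOPP pairs went from 6.38, 6.37 and 4.59 to 4.29, 3.81 and 3.16, and the MDBP pairs from 6.28, 6.73 and 9.38 to 4.72, 3.43 and 6.90. The treated array was lower in every pair, but the ranges overlapped: the treated values of preparation 3 were higher than most DMSO values of the other preparations. The change was -2.34 ± 0.17 (SE, n = 12 pairs; 5.06-fold lower; adjusted p = 8.51e-08). Of the 12 treated values 10 lay below 5, where array signals are least certain, so the fold carries that uncertainty.

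Sult1a1, the main phenol sulfotransferase, lay between 11.5 and 12.7 in DMSO (median 12.2) and between 10.3 and 12.1 after treatment (median 10.8). It was lower in 12 of 12 pairs, by 1.17 ± 0.07 (2.25-fold lower; adjusted p = 1.1e-08), with the least change in pair 2 of TFMPP, at -0.42. Sult1b1, a sulfotransferase of thyroid hormone and phenols, changed by -0.88 ± 0.10, also in 12 of 12 pairs. Sult1e1, the estrogen sulfotransferase, changed by -0.80 ± 0.13 in 10 of 12 pairs, from -1.68 in preparation 3 to 0.14 in preparation 4. Sult1c3 fell by 0.41 ± 0.11, but its adjusted p was 0.0518 without preparation 3 and 0.0712 with 1 value per preparation.

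The risers of the family were Sult1c2, Sult1c2a and Sult6b2. Sult1c2 was dim in DMSO, between 2.41 and 2.81, and lay between 2.81 and 3.65 after treatment, so the ranges met without overlapping. It rose by 0.48 ± 0.06 (SE, n = 12 pairs; limma adjusted p = 3.65e-05), in 12 of 12 pairs. A probe set shared by Sult1c2 and RGD1562392 rose by 0.52 ± 0.07, again in 12 of 12 pairs. Sult1c2a rose by 0.43 ± 0.06 in 10 of 12 pairs (adjusted p = 0.112 without the pair terms); it is a close relative, and its probes may share signal with Sult1c2. Sult6b2, named after its values were seen, rose by 0.63 ± 0.10 in 9 of 12 pairs.

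Sult1d1, Sult2a1, Sult2a2, Sult2b1, Sult4a1 and Sult5a1 did not pass. Their changes lay between -0.20 and 0.02. Of these, Sult2a2 stood at 3.95 in the DMSO arrays of preparation 3 and at 1.94 to 2.15 in the others, and its difference was -1.32 in preparation 3 and at most 0.05 elsewhere. The 2 probe sets of Sult2b1 differed in their call: the brighter one, counted here, stood at -0.07 ± 0.06 and the dimmer at -0.32 ± 0.07 (limma adjusted p = 0.547 and 0.00527).

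The cytosolic and organellar glutathione transferases moved in both directions, and no class was tested as a whole. Of 21, 11 fell, 4 rose and 6 did not pass. All 3 theta genes fell, as did 3 of 4 alpha genes, 4 of 7 mu genes and the zeta gene Gstz1. The risers were Gstk1 of the kappa class, Gstp1 of the pi class, Gsto1 of the omega class and Gstcd, a protein with a transferase-like domain that the name rule brought in.

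Gstt3, of the theta class, fell by the most in this family. In the BZP pairs it went from 9.24, 8.74 and 11.5 in DMSO to 7.16, 6.97 and 9.26, and in the TFMPP pairs from 9.19, 8.94 and 9.51 to 7.98, 8.46 and 8.81. In the MeOPP pairs it went from 8.88, 8.57 and 9.53 to 7.30, 7.35 and 8.31, and in the MDBP pairs from 9.10, 8.92 and 10.9 to 7.34, 7.00 and 9.08. Every treated value lay below its own control, and the least change was that of pair 2 of TFMPP. The mean change was -1.50 ± 0.06 (SE, n = 12 pairs; 2.83-fold lower; adjusted p = 5.21e-10). Its class mates Gstt1 and Gstt2 fell by 0.38 ± 0.08 and 0.23 ± 0.05. A second, dimmer probe set of Gstt2 stood at -0.11 and did not pass, and with 1 value per preparation Gstt2 did not pass either (adjusted p = 0.0939).

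Among the alpha genes, which carry much of the glutathione transferase and steroid isomerase activity of the liver, Gsta3 lay between 5.72 and 8.31 in DMSO (median 6.79) and between 4.26 and 7.28 after treatment (median 5.30). The ranges overlapped, and all 12 pairs were lower. The change was -1.40 ± 0.11 (2.64-fold lower; adjusted p = 9.03e-08). Gsta4, which clears the lipid peroxidation product hydroxynonenal, changed by -0.57 ± 0.07 and Gsta1 by -0.46 ± 0.05, each lower in 12 of 12 pairs. Gsta1 held a narrow range, 11.8 to 12.1 in DMSO and 11.1 to 11.8 after treatment. The probe set shared by Gsta2 and Gsta5 stood at -0.10 ± 0.09, higher in 6 pairs and lower in 6. Gsta3l1 had a DMSO mean of 2.13 and did not pass.

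The mu genes lie together on chromosome 2, and Gstm7, Gstm2, Gstm4 and Gstm3 fell. Gstm7 changed by -0.72 ± 0.08, Gstm2 by -0.67 ± 0.07 and Gstm4 by -0.32 ± 0.06, each lower in 12 of 12 pairs. Gstm3 changed by -0.26 ± 0.05 in 8 of 12 pairs. Gstm1, a bright gene at 12.3 ± 0.3 in DMSO (SD, n = 12), stood at -0.17 ± 0.06 and did not pass (limma adjusted p = 0.0728), but it passed among genes with a mean of at least 5, at 0.0471, and without pair 2 of BZP, at 0.0248. Gstm5 stood at -0.12 and Gstm6l at 0.06, neither past the threshold. These paralogs are alike in sequence, and probes may share signal among them. Gstz1, an enzyme of tyrosine breakdown, changed by -0.86 ± 0.06 in 12 of 12 pairs (1.81-fold lower; adjusted p = 4.45e-08).

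Gstk1, the transferase of mitochondria and peroxisomes, was the member that rose most. It went from 9.37, 10.5 and 10.4 in DMSO to 11.2, 11.5 and 10.8 with BZP and from 9.34, 10.3 and 10.5 to 10.2, 10.6 and 10.9 with TFMPP. With MeOPP it went from 9.40, 10.2 and 10.5 to 10.7, 11.0 and 11.2, and with MDBP from 9.34, 9.32 and 10.1 to 10.4, 10.2 and 10.5. Each treated array was higher than its control. The rise was largest in preparation 1, at 1.27 on a DMSO mean of 9.36, and smallest in preparation 3, at 0.39 on 10.2. Preparation 5, with a DMSO mean of 9.32, rose by 0.91. The mean change was 0.83 ± 0.10 (SE, n = 12 pairs; 1.77-fold higher; adjusted p = 2e-05).

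Gstp1, known as a marker of altered foci in rat liver and low in normal hepatocytes, lay between 8.38 and 9.85 in DMSO (median 9.04) and between 8.79 and 10.2 after treatment (median 9.78). It rose in 12 of 12 pairs by 0.59 ± 0.08 (1.51-fold higher; adjusted p = 6.28e-05), from 0.03 in pair 3 of MeOPP to 1.18 in pair 2 of MeOPP. Bile duct cells also express Gstp1. Of 7 measured cholangiocyte markers 0 passed in limma (0 at an unadjusted p under 0.05 as well), and 2 of the 7 had a mean of at least 5. Their mean level lay between 3.99 and 4.30 in DMSO and between 3.98 and 4.14 after treatment. The part of bile duct cells in the rise of Gstp1 was not tested. In such bulk samples, fewer cells of a type and less RNA per cell cannot be told apart. Gstp3 stood at 0.34 ± 0.13 and did not pass (adjusted p = 0.0637), with DMSO values near 6.89 and 6.61 in preparations 2 and 4 and 3.74 to 4.45 in the others. Gsto1 rose by 0.26 ± 0.05 in 11 of 12 pairs, and Gstcd by 0.25 ± 0.07 in 9 of 12 (adjusted p = 0.0629 without preparation 3).

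All 3 membrane-bound transferases fell, by unequal amounts. Mgst3, which also acts on lipid hydroperoxides, lay between 8.18 and 10.5 in DMSO (median 8.92) and between 7.32 and 9.22 after treatment (median 8.00). It was lower in 12 of 12 pairs, by 0.97 ± 0.08 (1.95-fold lower; adjusted p = 1.37e-07), and preparations ranged from -1.26 to -0.82. Mgst2 changed by -0.33 ± 0.05, lower in 12 of 12 pairs. Mgst1, the abundant microsomal form, stood at 13.0 ± 0.1 in DMSO (SD, n = 12) and changed by -0.12 ± 0.04 (adjusted p = 0.0406). That last call was lost on leaving out any 1 pair other than pair 1 of MDBP or pair 3 of MeOPP, at adjusted p = 0.0563 to 0.0845.

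With each drug, more members fell than rose. With BZP 18 members fell and 5 rose, against 5.96 and 6.66 percent of all genes. With MDBP 16 fell and 5 rose (all genes, 5.05 and 4.68 percent). With MeOPP 11 fell and 2 rose (4.52 and 3.45 percent), and with TFMPP 9 fell and 0 rose (1.71 and 0.872 percent). For the last count, 2 members were higher at an unadjusted p under 0.05, and 2 rose in a fit of the TFMPP arrays alone. Without the pair terms 0 members fell with any drug by limma (11, 1, 7 and 9 were lower at an unadjusted p under 0.05 with BZP, TFMPP, MeOPP and MDBP), and 1, Sult1c2, rose with BZP. The TFMPP count of falls rests on all 3 of its pairs, being 2, 4 and 5 without pairs 1, 2 and 3. The MDBP falls numbered 9 without pair 2 or pair 3 and 12 without pair 1, and its rises 3, 1 and 2 without pairs 1, 2 and 3. The MeOPP rises were 0 without pair 1 or pair 2. The percentages of all genes given here belong to the main paired fit alone.

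With each of the 4 drugs the same 6 members fell: Sult2a6, Sult1a1, Gstt3, Gsta3, Gstz1 and Mgst3. Of all genes 202, or 1.42 percent, fell with all 4. That count of members was 2 (Gsta3, Sult2a6) without pair 1 of TFMPP, 3 (Gstt3, Mgst3, Sult1a1) without pair 2 and 3 (Gstt3, Gstz1, Sult2a6) without pair 3, a count taken after seeing the data. The share of all genes dropped as well, to 0.373, 0.640 and 0.605 percent in the same order. Sult2a6 changed by -2.81 under BZP, -2.09 under TFMPP, -2.02 under MeOPP and -2.45 under MDBP, each ± 0.35 (SE, n = 3 pairs; limma adjusted p from 9.81e-05 to 0.00492). Mgst3 was the most even, at -1.04, -0.85, -1.01 and -0.97 in the same order, each ± 0.15. Gstk1 rose with BZP (1.05), MeOPP (0.94) and MDBP (0.80) and stood at 0.51 ± 0.21 with TFMPP. Sult1c2 rose with BZP (0.82) and MDBP (0.72), the benzylpiperazines, and stood at 0.18 with TFMPP and 0.21 with MeOPP, the phenylpiperazines. All its values lay below 5. The probe set shared with RGD1562392 did not divide the drugs so, at 0.70 with BZP, 0.50 with MDBP, 0.35 with TFMPP and 0.52 with MeOPP. Sult1c2a stood at 0.84 and 0.58 against 0.20 and 0.12. Preparation 3 holds pairs of BZP and MDBP alone, preparation 4 pairs of TFMPP and MeOPP alone, and preparation 5 only pair 2 of MDBP. Drug and preparation are thus partly confounded. In preparation 1, which all 4 drugs share, Sult1c2 stood at 0.72 with BZP, 0.27 with MDBP, 0.28 with TFMPP and 0.03 with MeOPP. In no member did 2 drugs pass in opposite directions.

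**Figure D3:**
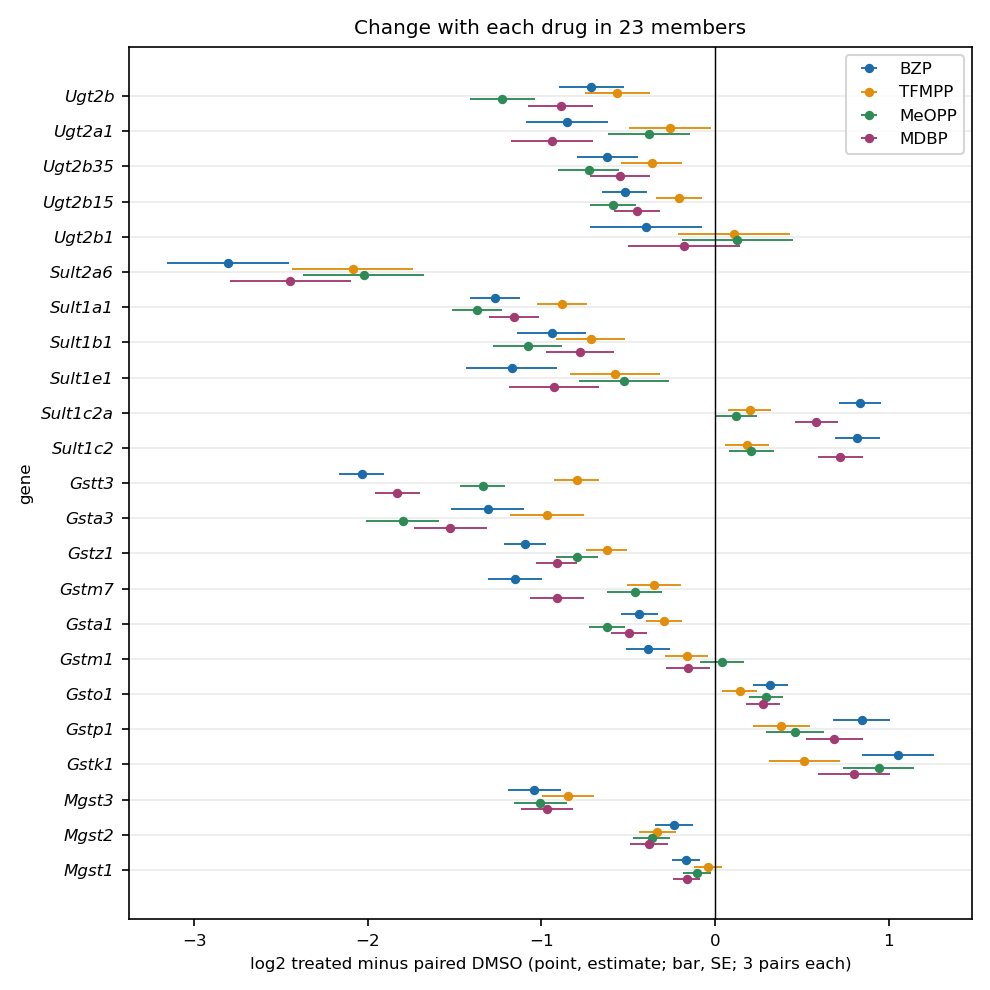
Change with each drug in 23 members, as the limma estimate with its SE over 3 pairs, on the log2 scale. For most genes the 4 points lie on the same side of 0, and TFMPP (orange) lies nearest to 0 for Gstt3, Gstz1, Gsta3 and Gstk1.

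The difference among the 4 drugs, as dosed, was tested for each member. In the limma F test 0 of the 47 members passed, and 0 of all 31042 probe sets. At an unadjusted p under 0.05 there were 10 of the 47 members and 1869 of the 31042 probe sets. Of the 6 comparisons between drugs, BZP against TFMPP gave 1 member, Gstt3, whose fall was larger with BZP by 1.24 (95 percent interval of the log2 difference -1.63 to -0.85; limma adjusted p = 0.0223). In that comparison 13 genes in all passed, 0.0914 percent, and the other 5 comparisons gave 0 genes. Within the preparations that both drugs share, Gstt3 changed by -2.08 with BZP and -1.21 with TFMPP in preparation 1, and by -1.77 and -0.48 in preparation 2. The call on Gstt3 was lost without the pair terms (adjusted p = 1.00), without pair 1 or pair 3 of BZP (adjusted p = 0.078 and 0.0993) and also without pair 2 or pair 3 of TFMPP (0.171 and 0.192). For Sult6b2 the TFMPP pairs were all lower (-0.26) and those of BZP (1.19), MeOPP (0.74) and MDBP (0.85) all higher. Its difference between BZP and TFMPP was 1.45, with an interval of 0.84 to 2.07 and an adjusted p of 0.154. For Sult2a6 the same difference was -0.72, with an interval of -1.77 to 0.33, and for Mgst3 -0.19, from -0.65 to 0.26. These intervals, wide beside many of the changes, leave differences of that size undecided, and no dose was matched.

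The levels of several members in DMSO differed more between preparations than any drug changed them. Sult2a6 spanned 4.56 on the log2 scale between preparation means in DMSO, from 4.76 in preparation 4 to 9.32 in preparation 3. Ugt2b1 spanned 3.43, Gstp3 3.15, Ugt2b10 2.90 and Gsta3 2.58. Preparation 3 was the highest of the 5 for Sult2a6, Ugt2b1, Ugt2b10, Gsta3, Gstt3 and Mgst3, but not for Gstp3, Sult1e1 or Gstp1. By contrast Ugt2b15 spanned 0.49, Gsta1 0.30 and Mgst1 0.23. A probe set's level cannot be set against that of another, so these spans compare each gene with itself alone.

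**Figure D4:**
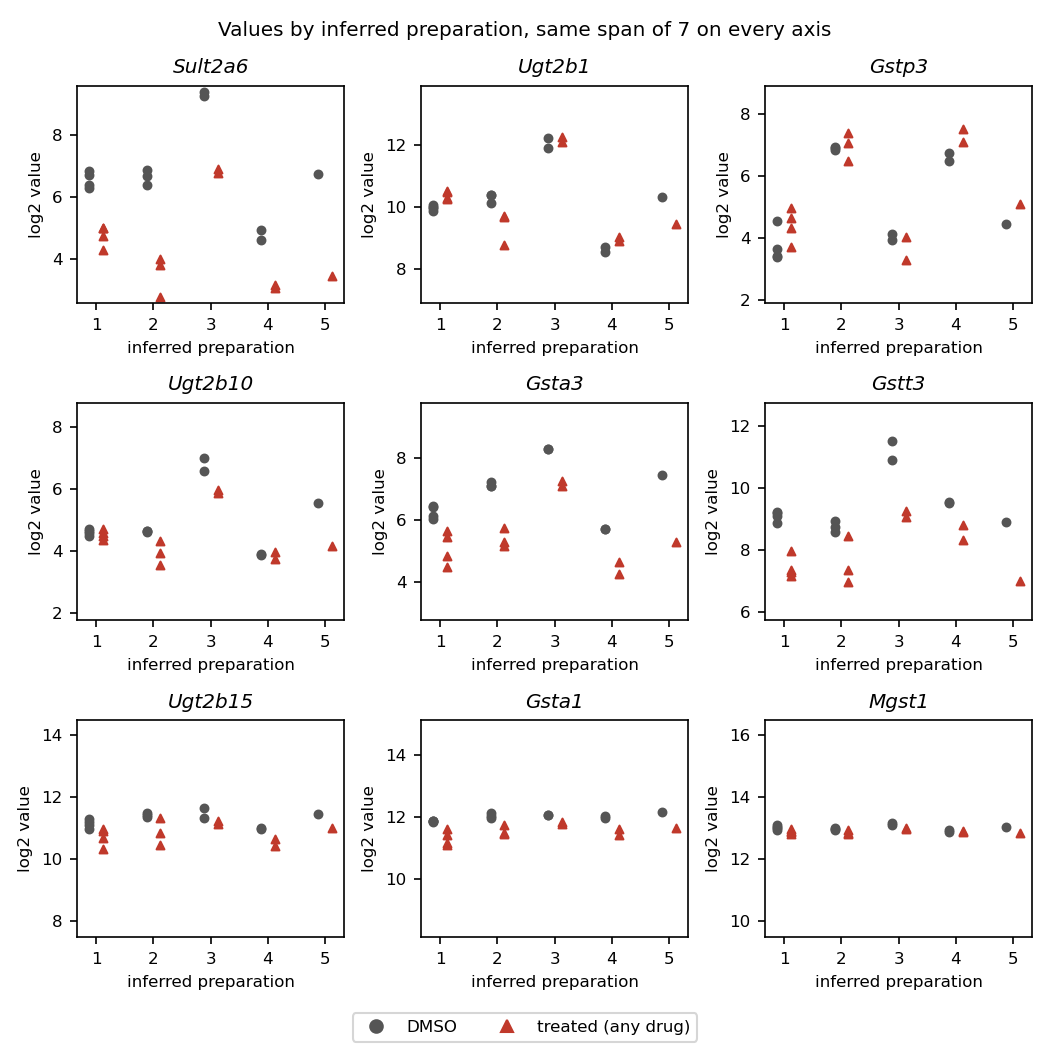
Log2 values of 9 members by inferred preparation, with DMSO arrays as grey dots and treated arrays as red triangles, on axes of equal span. Sult2a6 shows its highest DMSO values in preparation 3 and red triangles below the grey dots in all 5, while Ugt2b1 has triangles below the dots in preparations 2 and 5 only.

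The genes most like each family's strongest member were sought over the 12 paired changes, by Pearson correlation and outside the family. For Ugt2b they were Ino80 (r = 0.93), Gsta1 (0.93) and Nipal1 (0.92). For Sult2a6 they were Akr1c19 (0.95), C4bpb (0.93) and Adh4 (0.93). For Gstt3 they were Trim25 (0.95), RT1-S3 (0.93) and Apol9a (0.92), and for Mgst3 Ndufa12 (0.93), Xrcc6 (0.92) and Hddc3 (0.90). The points share preparations, and Ino80, Apol9a and Xrcc6 did not pass in the mean of the drugs, so likeness here is of the order of the pairs and not of the size of the change.

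Genes that serve conjugation were counted by list, in the mean of the drugs, where 11.9 percent of all genes fell and 18.0 percent rose. Nothing was tested at the level of a list, and small counts such as 3 of 14 lie near these shares. Of 5 measured genes of UDP-glucuronate supply, 3 fell and 1 rose: Ugdh, which makes UDP-glucuronate, rose by 0.24 ± 0.05, and Ugp2, which makes UDP-glucose, changed by -0.23 ± 0.05 (SE, n = 12 pairs). Of 11 genes of PAPS supply and turnover, 5 fell and 1 rose. The liver PAPS synthase Papss2 changed by -0.37 ± 0.05 and the sulfate carrier Slc26a1 by -0.67 ± 0.06, each in 12 of 12 pairs, while Papss1 rose by 0.26 ± 0.05. Of 17 genes of glutathione supply and breakdown, 6 fell and 1 rose. Cbs and Cth, which lead from homocysteine to cysteine, changed by -0.87 ± 0.06 and -0.68 ± 0.06, whereas Gclc, Gclm and Gss, which join the amino acids of glutathione, stood at -0.10, 0.02 and 0.01 and did not pass. Chac1, which breaks glutathione down, rose by 0.72 ± 0.13.

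Of 14 measured genes of conjugation by other routes 10 fell and 0 rose in limma (0 at an unadjusted p under 0.05), against 11.9 and 18.0 percent of all genes. Acsm1 and Glyat, which activate acids and join them to glycine, changed by -1.55 ± 0.07 and -1.38 ± 0.11. Slc27a5 and Baat, which do the same for bile acids, changed by -1.27 ± 0.14 and -0.87 ± 0.10, the methyltransferases Nnmt and Tpmt by -0.96 ± 0.07 and -0.67 ± 0.07, and the acetyltransferase Nat1 by -0.36 ± 0.07 (SE, n = 12 pairs). The median of the 14 was -0.64. Of 7 genes of deconjugation 3 rose and 0 fell by limma (0 fell at an unadjusted p under 0.05), with Sumf1, which activates sulfatases, higher by 0.29 ± 0.05. Of 6 exporters of conjugates 2 rose, the canalicular pump Abcc2 by 0.60 ± 0.06 and Abcc4 by 0.27 ± 0.07. Of 14 regulators 5 fell and 3 rose: the receptor genes Nr1i3 (CAR), Nr1i2 (PXR) and Nr1h4 (FXR) changed by -1.48 ± 0.19, -0.64 ± 0.05 and -0.50 ± 0.05 in 12 of 12 pairs each, and Ahr and Nfe2l2 (NRF2) rose by 0.39 ± 0.06 and 0.29 ± 0.06, also in 12 of 12.

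**Figure D5:**
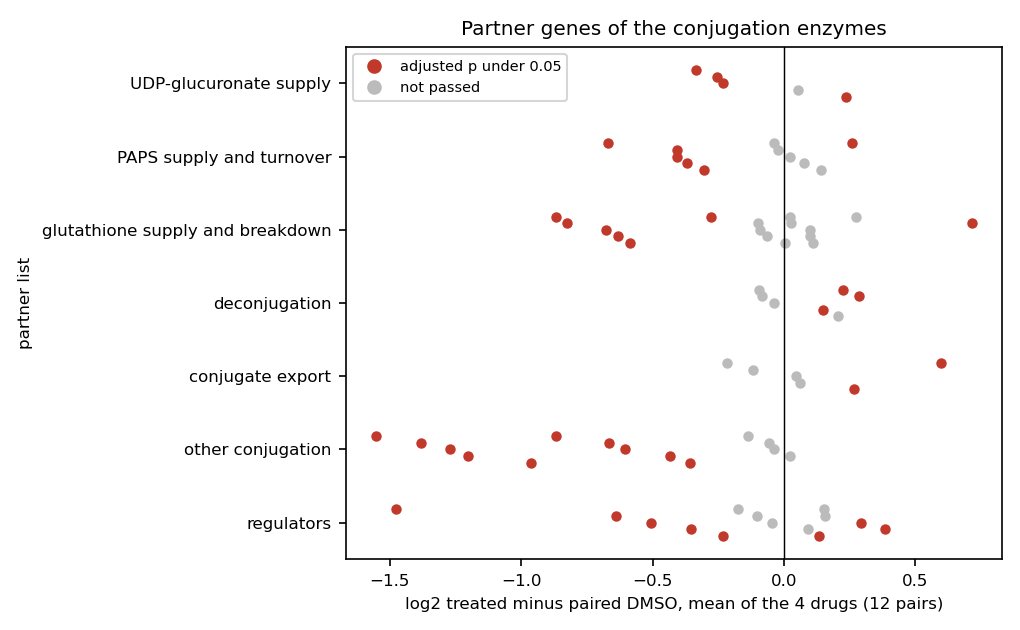
Change of each gene of the 7 partner lists in the mean of the 4 drugs, on the log2 scale over 12 pairs; red points had an adjusted p under 0.05 and grey points did not. Red points of other conjugation all lie below 0, and those of deconjugation and conjugate export all lie above 0.

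Markers were read to set these changes beside the cells in the samples, against the same shares of all genes. Of 9 measured hepatocyte markers 5 fell and 0 rose in limma (0 at an unadjusted p under 0.05), with a median change of -0.23. Albumin (Alb), at 14.07 in DMSO, holds the highest value on any array, so its probe set may be saturated and its change is not read. Their mean level lay between 12.3 and 12.7 in DMSO and between 11.9 and 12.6 after treatment. Of 12 Kupffer cell and leukocyte markers 8 fell and 1 rose, with levels of 5.17 to 6.54 in DMSO and 4.92 to 6.30 after treatment. Of 11 stellate cell markers 2 fell and 1 rose (4.78 to 5.59, then 4.69 to 5.60), and of 8 markers of sinusoidal endothelium 0 passed in limma (1, Stab2, at an unadjusted p under 0.05), with levels of 4.30 to 6.52 and then 4.32 to 6.41. The part of these cell types in the changes of the conjugation enzymes was not tested.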

How the data were processed

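Values were the deposited log2 expression values of 24 arrays, 1 per sample, which the authors made with RMA, per the submitters' processing notes; the sources used here give no version of it. Probe sets were named through the platform annotation, and those of several genes were kept apart. All 31042 probe sets, without 57 controls, were fitted in limma 3.58.1 under R 4.3.3, on 4 drug terms and 12 terms for the pairs (8 residual degrees of freedom), Benjamini-Hochberg adjusted, after tests on simulated data. The control titles name each treated sample's control, and paired arrays deviated together (r = 0.612 to 0.802). Preparations were inferred by clustering the DMSO arrays on their correlations, with 5 groups set by hand. The rule for members to name took up to 4 per family and direction moved alike in at least 10 of 12 pairs. Ugt2b1, Gsta1 and Gstm1 were named in any case, 23 in all. The rule also names Ugt1a1, which has no probe set of its own, and 4 members already included. Each of the 23 is given with its change and SE, and only some with levels and an adjusted p. The members and lists were chosen with earlier results of these data known. The number of arrays limits the precision. Alternatives were no pair terms, repeated quantile normalization, a filter on dim probe sets (mean log2 under 5), averaged probe sets, single-drug fits, 1 value per preparation and leaving out each pair.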

Additional observations from a re-analysis of the deposited data

Results flagged for a closer look

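The fall of Gstt3 differed between BZP and TFMPP in a test of the difference itself, at -1.24 on the log2 scale (limma adjusted p = 0.0223, n = 3 pairs a drug). The call was lost without the pair terms (adjusted p = 1.00) and in 4 of the 12 fits that left out 1 pair (adjusted p = 0.078 to 0.192). The 3 BZP pairs each fell further than the 3 TFMPP pairs. The F test among the 4 drugs did not pass for Gstt3 (adjusted p = 0.125), and the doses were 625 and 35 µM.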

How the results depend on the processing

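Without the replicate block (the pair terms), the members called lower and higher went from 18 and 5 to 0 and 1 with BZP, from 9 to 0 lower with TFMPP, from 11 and 2 to 0 and 0 with MeOPP, from 16 and 5 to 0 and 0 with MDBP, and from 25 and 7 to 12 and 4 in the mean of the drugs. Fitted on its own arrays, TFMPP had 2 members higher. Leaving out 1 of a drug's own 3 pairs gave 14 to 17 lower and 5 to 5 higher with BZP. Done likewise, TFMPP had 2 to 5 lower, MeOPP 9 to 9 lower and 0 to 2 higher. MDBP had 9 to 12 lower and 1 to 3 higher on leaving out 1 of its own pairs. In the mean, leaving out any 1 of the 12 pairs gave 24 to 25 lower and 7 to 9 higher. The difference among the drugs gave 0 to 1 members, the 1 without pair 1 of TFMPP. The uncalled mean of Ugt2b1 ranged from -0.162 to 0.067 on leaving out 1 pair and turned from -0.09 to 0.067 without pair 2 of BZP, 0.0022 without pair 2 of MDBP and 0.016 without pair 2 of TFMPP. The causes were not tested. Repeated quantile normalization and averaged probe sets left each of the 32 calls in the mean in place. With 1 value per preparation Ugt2a1, Gstt2, Sult1c3 and Mgst1 lost theirs, and without preparation 3 Gstcd, Sult1c3 and Mgst1 (adjusted p = 0.0832). With 3 pairs a drug, the 95 percent interval of a difference between drugs had a median half-width of 0.41, without adjustment for the many probe sets. Smaller differences were thus not resolved. Larger ones could also fail the adjusted test, as for Sult6b2 between BZP and TFMPP, at 1.45 (limma adjusted p = 0.154). Only Gstt3 passed, in BZP against TFMPP. Of the 47 members 13 had a mean below 5, where array signals are least certain.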

Other observations

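Besides Sult6b2, 3 members had all 3 pairs of 1 drug on one side of 0 and all 3 pairs of another on the other. No share of all genes is given beside this count. Gstm3 stood at 0.16 with MeOPP and at -0.58 with BZP and -0.54 with TFMPP. Gstm5 stood at 0.24 with MDBP and at -0.11, -0.44 and -0.16 with BZP, TFMPP and MeOPP, and it passed the test with TFMPP and not in the mean of the 4 drugs. Sult2a2 stood at 0.12 with TFMPP and -0.61 with BZP, where its pairs stood at -0.06, -0.12 and -1.65. All values of Sult2a2 lay below 5. The limma F test among the drugs passed for none of these 3 (adjusted p = 0.358, 0.646 and 0.909). Another 6 members, Gstcd, Gstm4, Gsto1, Gstt1, Mgst1 and Sult1c3, passed in the mean of the drugs but with no single drug. The share of all genes that did so is not given. In the mean 11.9 percent of all genes fell and 18.0 percent rose, against 5.96 and 6.66 percent with BZP, the largest shares of any drug.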
